A study of Mus musculus with 10 samples.

Results

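Among the single cells that had been sorted from ear skin as dermal endothelial cells, a small group of wells held the transcripts of epidermal keratinocytes, and these wells are described here. The wells were chosen by their measured CPM of 8 genes. A well was counted as a keratinocyte when *Krt5* and *Krt14* together reached at least 1000 CPM (counts scaled to a common library total) and exceeded both the sum of *Prox1*, *Flt4* and *Mmrn1* and the sum of *Flt1*, *Emcn* and *Podxl*. Of 3248 wells that passed the quality limits, 76 met this rule (2.34%). The comparison classes were 1631 lymphatic endothelial cells (LECs) and 1479 blood endothelial cells (BECs), named from the same 2 endothelial sums, and 62 wells fell into no class. The mutant mice (5 animals) carried *Pik3ca* H1047R, a Cre-activated chicken *PIK3CA* transgene, together with *Cdh5-CreERT2*, whose promoter is active in endothelium, and had received topical 4-OHT on the ear at 3 wk of age. Control 1 was an untreated C57BL/6J mouse and control 2 a littermate without Cre that received 4-OHT. All were 5 wk old, and a further littermate control was not analysed here. Cells had been gated on podoplanin and CD31 after exclusion of dead cells and of cells positive for CD45, CD11b or Ter119, so the gate was set to leave keratinocytes out, and the wells found here are those that passed it. The Cre driver is not known to act in keratinocytes, and since the count tables have no row for the transgene, its transcript was not analysed here.

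Keratinocytes form the stratified epithelium of the skin. In its basal layer, the paired keratins 5 and 14 build the intermediate filaments, hemidesmosomes with type XVII collagen and integrin α6β4 fix the cells to the basement membrane, and desmosomes fix them to each other. Cells that leave the basal layer switch to keratins 1 and 10, and the hair follicle and sebaceous gland are specialised parts of the same epithelium. The sequences upstream of 3 genes on which the description turns are shown because they stand for the basal keratin, the hemidesmosome and the upper follicle. *Krt5* encodes the basal type II keratin that served in the rule, *Col17a1* the hemidesmosomal collagen that did not, and *Krt79* a follicular keratin that is the only gene called between genotypes below. Each is the 250 bases before the RefSeq start (GRCm38.p6, minus strand), at chr15:101712906-101713155, chr19:47692043-47692292 and chr15:101940325-101940574, and capitals mark TATAAA or CACCC on either strand.
Krt5: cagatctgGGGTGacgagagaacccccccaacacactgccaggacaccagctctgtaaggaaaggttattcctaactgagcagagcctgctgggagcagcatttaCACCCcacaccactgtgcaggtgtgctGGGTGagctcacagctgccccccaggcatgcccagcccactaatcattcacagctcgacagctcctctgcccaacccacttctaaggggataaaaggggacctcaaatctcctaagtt
Col17a1: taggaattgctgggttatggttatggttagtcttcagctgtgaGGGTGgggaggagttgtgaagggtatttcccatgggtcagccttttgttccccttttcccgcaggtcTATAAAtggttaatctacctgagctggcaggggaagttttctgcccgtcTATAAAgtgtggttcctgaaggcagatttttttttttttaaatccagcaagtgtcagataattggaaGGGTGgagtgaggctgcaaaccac
Krt79: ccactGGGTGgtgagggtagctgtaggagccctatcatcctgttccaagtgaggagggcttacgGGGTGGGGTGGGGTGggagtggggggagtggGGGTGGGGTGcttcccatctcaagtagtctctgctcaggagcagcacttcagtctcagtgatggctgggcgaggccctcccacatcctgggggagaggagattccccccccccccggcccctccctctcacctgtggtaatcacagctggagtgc
TATAAA occurred 2 times before *Col17a1* and was not found in these windows of *Krt5* and *Krt79*, against 12.4% of 32851 RefSeq promoters that held it. CACCC occurred 3, 2 and 6 times before *Krt5*, *Col17a1* and *Krt79*, with adjoining copies before *Krt79*, against 52.0% of promoters that held at least 1. RefSeq upstream sequences were not shown for *Krt15* and *Perp*.

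The keratinocyte wells had a median of 377981 reads (range 55116–793013) and 6298.5 detected genes, compared with 334021 reads and 6155 genes in LECs and 258385 reads and 5481 genes in BECs. They came from every mouse but in unequal numbers, with 12 wells in each control and 5, 1, 22, 13 and 11 in mutants 1–5. Their reads summed to between 413598 in mutant 2 and 6421638 in mutant 3. Mutant 2 therefore rests on a single well and took no part in the fits between genotypes. Each well was 1 library without molecular identifiers, so reads are not independent molecules, and wells of 1 mouse are not replicates of a genotype. Mutants 1–4 had been run on plates with lower plate numbers than mutant 5 and both controls, so 4 of 5 mutants differ from the controls in plate series as well as in genotype.

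The 5 markers set for keratinocytes were far above their endothelial levels in every mouse. *Krt5* and *Krt14* are part of the rule, and the values are given as a description. Summed per mouse, *Krt5* was at 3206 and 2798 CPM in controls 1 and 2 and at 3763, 1451, 4814, 5012 and 5216 CPM in mutants 1–5, whereas LEC sums reached at most 47.6 and BEC sums at most 93.7 CPM. *Krt14*, the partner of keratin 5, was at 2984 and 3020 CPM in controls and at 3364, 2016, 4399, 4259 and 4013 CPM in mutants. *Krt15*, a keratin of basal cells and of the follicle bulge, was at 2301 and 2583 CPM in controls and 2693, 510, 3215, 3709 and 4495 CPM in mutants. The single well of mutant 2 was the lowest for each of these keratins. *Col17a1* was at 1699 and 1087 CPM in controls and 1024, 215, 1894, 2666 and 3013 CPM in mutants. *Perp*, a membrane protein of desmosomes, was at 2074 and 1870 CPM in controls and 1736, 1243, 2082, 2323 and 2948 CPM in mutants. For these 5 genes no keratinocyte sum overlapped a LEC or BEC sum of any mouse. Per kilobase of exon, which allows genes to be set against each other, *Krt14* was the highest of the 5 with 2095 RPKM (reads per kilobase of exon, scaled to library size), followed by *Krt5* with 1870, *Krt15* with 1758, *Perp* with 1140 and *Col17a1* with 332 RPKM. The genes lie on mouse chromosomes 15 (*Krt5*, chr15:101707070-101712898), 11 (*Krt14*, chr11:100203162-100207548, and *Krt15*, chr11:100131758-100135928), 19 (*Col17a1*, chr19:47646344-47692094) and 10 (*Perp*, chr10:18845020-18857073) of GRCm38, as whole genes of the GENCODE vM21 annotation.

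**Figure D1:**
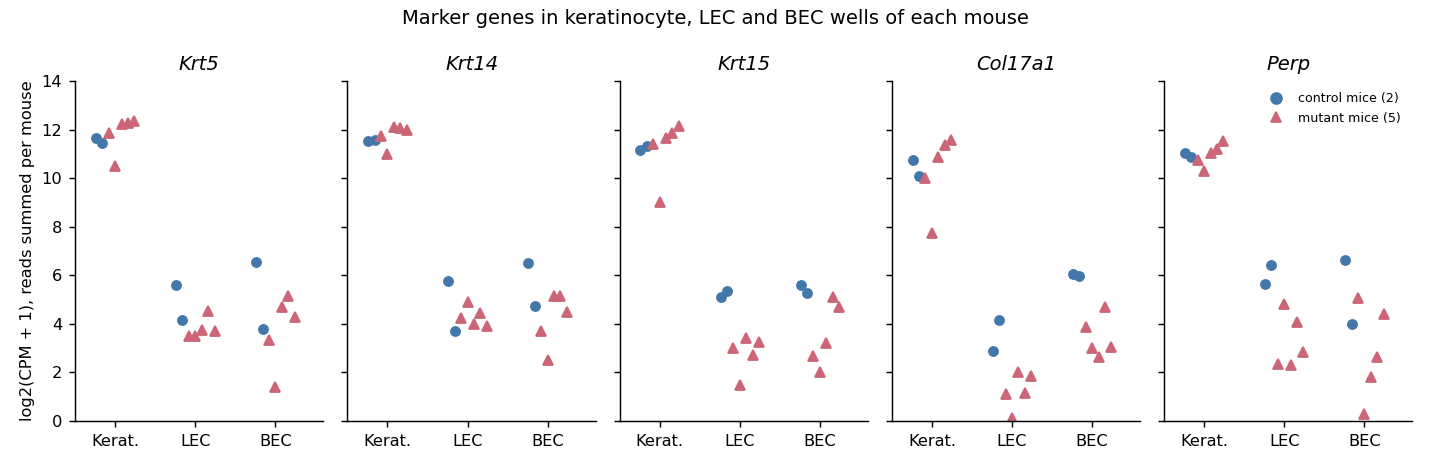
Level of the 5 keratinocyte markers, log2(CPM + 1) of reads summed per mouse (y axis), in keratinocyte, LEC and BEC wells (x axis), with 1 point per mouse (circles, 2 controls; triangles, 5 mutants). All keratinocyte points lie above all endothelial points, and the lowest keratinocyte point in each panel is mutant 2, with 1 well.

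Well by well, *Krt5* and *Krt14* both reached 100 CPM in 73 of 76 wells, and all 5 markers did so in 68. *Krt14* ranged from 798 to 9550 CPM with a median of 3791 and *Krt5* from 1.56 to 14104 CPM with a median of 4491. Across the 76 wells the levels of both keratins rose together (Spearman's rho 0.867, a description over wells that share mice, plates and the rule). *Trp63*, the transcription factor of stratified epithelia, was detected in all but 12 wells and reached 100 CPM in 53. Low values mark the edge of the rule. The lowest sum inside it was 1296 CPM, in well O11 of control 2, which had *Krt14* at 1294 but *Krt5* at 1.56 CPM, *Col2a1* (cartilage collagen) at 5633 CPM and a fibroblast list of 7 genes at 12386 CPM. Next was well M20 of control 1 with 1574 CPM and a sum of 15148 CPM over the 10 pan-endothelial genes. Only 3 wells had 2 or fewer of the markers at 100 CPM. Just outside, 21 wells reached 1000 CPM of *Krt5* and *Krt14* but had a larger endothelial sum, the closest with 1354 against 1384 CPM, while the closest well inside had 3260 against 2166 CPM. Among wells under 1000 CPM in which the keratins nevertheless exceeded the endothelial sums, the highest had 707 CPM. Well O11 goes against its name, and results that rest on it are given with and without it.

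The keratinocyte wells fell apart by how many endothelial transcripts they also held. Over 10 pan-endothelial genes (among them *Pecam1*, *Cdh5* and *Cldn5*, junctional proteins of all vessels), 36 wells had at most 1732 CPM and 40 wells had at least 2990 CPM, and none lay between. They are called endothelial-low and endothelial-high, a division chosen after these values were seen. The median was 455 CPM in endothelial-low and 6780 CPM in endothelial-high wells, compared with 8829 CPM in LECs and 13315 CPM in BECs, of which 4 and 3 wells were under 2000 CPM. Summed over wells, *Pecam1*, which encodes the CD31 antigen of the gate, was at 84.1 CPM in endothelial-low and 1322 CPM in endothelial-high wells. *Cdh5*, the gene whose promoter drives the Cre, was at 19.9 and 232 CPM, and *Cldn5* at 111 and 1208 CPM. *Pdpn*, the second antigen of the gate, was low in both, with 30.7 and 73.9 CPM against 665 CPM in LECs, and was not detected in 17 of 76 wells.

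Which endothelial genes were present followed the position on the plate. LEC wells lay in columns 1–12 (1603 of 1631) and BEC wells in columns 13–24 (1451 of 1479), and keratinocytes lay mostly among the latter, with 17 in columns 1–12 and 59 in columns 13–24. Of the endothelial-high keratinocyte wells, all 10 in columns 1–12 had more of the 8 listed LEC genes than of the 8 listed BEC genes, and all 30 in columns 13–24 had more BEC than LEC genes. Endothelial-high wells made up 3 of 12 and 2 of 12 keratinocytes in controls 1 and 2, and 4 of 5, 1 of 1, 15 of 22, 12 of 13 and 3 of 11 in mutants 1–5. By plate series they were 32 of 41 on the lower-numbered plates and 8 of 35 on the higher-numbered ones. Mutant 5, the only mutant on the higher-numbered plates, resembled the controls in this share. Reads per spike-in read had a median of 270 in endothelial-low and 416 in endothelial-high wells, and 291 in LECs and 231 in BECs. Within mice, however, the order was not fixed, with a median of 376 against 306 in control 1, 167 against 254 in control 2, 269 against 492 in mutant 3 and 261 against 260 in mutant 5, low wells first. At 50000 reads per well, detected genes had a median of 3831.5 in endothelial-low and 4252.5 in endothelial-high wells. No doublet caller was run, and whether such wells held more than 1 cell was not tested.

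**Figure D2:**
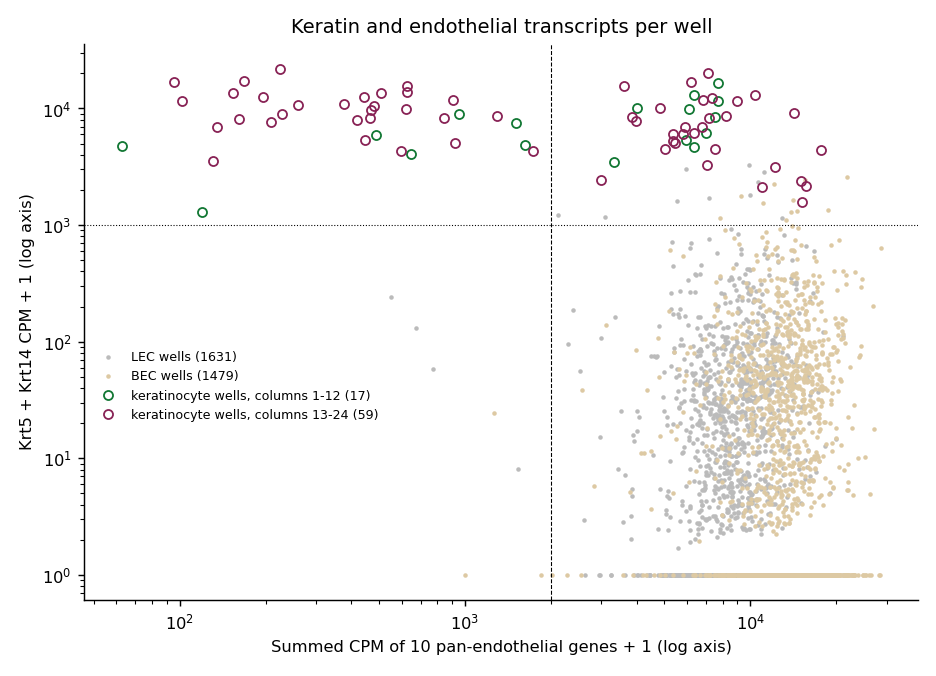
Summed CPM of 10 pan-endothelial genes + 1 (x axis, log) against *Krt5* + *Krt14* CPM + 1 (y axis, log) for each LEC, BEC and keratinocyte well, keratinocytes by plate columns; the dotted line is the rule's limit of 1000 CPM and the dashed line is at 2000 CPM. Keratinocyte wells form a group of 36 to the left of the dashed line and a group of 40 to its right, over the endothelial wells.

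**Figure D3:**
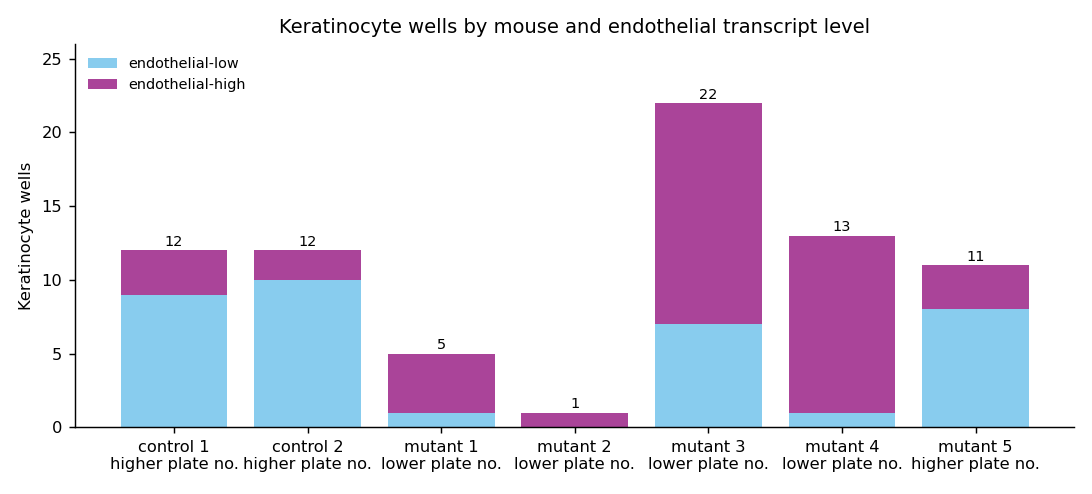
Number of keratinocyte wells (y axis) in each mouse (x axis, with lower or higher plate numbers), divided into endothelial-low and endothelial-high wells. Endothelial-high wells are most of the bar in mutants 1–4 and the smaller part in both controls and mutant 5.

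Suprabasal genes differed between both kinds of well, though not all in the same way in each mouse. Comparing the pooled sums, 9 of 12 suprabasal genes were at least 2-fold lower in endothelial-high wells, against 16.4% of all 11695 genes measured. Within each of the 4 mice with at least 2 wells of both kinds, *Krt10*, the keratin of the first suprabasal layer, was lower in endothelial-high wells, by log2 ratios of -1.68 and -3.18 in controls 1 and 2, -2.49 in mutant 3 and -1.82 in mutant 5. Its partner *Krt1* kept no direction, with log2 ratios of 0.60 and 1.34 in the controls, -0.67 in mutant 3 and -7.94 in mutant 5. *Zfp750*, a transcription factor of terminal differentiation, was likewise lower in all 4 (log2 ratios of -0.96, -7.87, -3.26 and -6.33). *Col17a1* was lower in all 4 by smaller amounts, from -0.61 to -1.28, and *Krt14* by -0.22 to -0.73. Of 14 immediate early and dissociation genes, 8 were at least 2-fold lower in pooled endothelial-high sums and 0 higher. Plate series differed between these sums, as 32 of the 40 endothelial-high wells came from lower-numbered plates. The list summed to less in every mouse on those plates, and the part of plate series was not tested. Within mice, *Atf3* of this list was lower in all 4 (log2 ratios of -1.67, -1.56, -3.55 and -6.98). *Fos*, an immediate early gene that rises when tissue is dissociated, did not keep a direction, with log2 ratios of -0.13, 0.27, 5.06 and -0.07. Nor did *Egr1*, with -0.24, 0.52, 6.13 and -2.31. All 7 fibroblast genes were at least 2-fold lower in endothelial-high wells, with sums of 1164 CPM in endothelial-low and 76.8 CPM in endothelial-high wells. This rested on 4 wells with at least 1000 CPM of the list, all endothelial-low. Without well O11, 1 of the 4, the endothelial-low sum was 640 CPM and all 7 genes were still lower, and without the 4 it was 60.3 CPM and 1 gene was lower and 1 higher. Of the pan-endothelial genes 9 of 10 were at least 2-fold higher, against 19.4% of all genes. Because the division was made from the same reads, these values carry no test.

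Against LECs and BECs, the keratinocyte wells stood apart by genes of the basal epidermis, its desmosomes and its transcription factors. The rule used this contrast, so the following is a description. A gene was counted as higher when the keratinocyte sum of every mouse exceeded every LEC and BEC sum and the pooled log2 ratio to the higher class was at least 1. By this measure 154 of 11975 measured genes were higher (1.29%) and 190 lower (1.59%). The count is held down by mutant 2, since without its single well 428 genes were higher, and in endothelial-low wells 210 (1.73%) were higher and 843 (6.93%) lower. All 5 markers were among the higher genes in each of these and in every other setting tried.

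The genes with the largest pooled log2 ratios to the higher endothelial class were led by *Fcgbp*, which encodes a mucin-like secreted protein, with 1342 CPM in keratinocytes, 2.35 in LECs and 2.28 in BECs (log2 ratio 8.65). *Aqp3*, the water and glycerol channel of the basal layer, followed with 627 against at most 1.94 CPM (7.74), and *Serpinb2*, a protease inhibitor, with 535 against 2.496 CPM in LECs (7.26). After the markers, *Dsp* (desmoplakin) was at 888 CPM, *Dsc3* (desmocollin 3) at 671 CPM and *Ckmt1* (mitochondrial creatine kinase) at 604 CPM, each with a log2 ratio above 6. *Capns2* (577 CPM), *Trim29* (1306 CPM) and *Plbd1* (317 CPM) were also among the 15. In mutant 2, several of these epidermal genes were at or near 0, among them *Serpinb2* and *Capns2* at 0 and *Fcgbp* at 7.25 CPM. The genes most clearly lower were *Slco2b1*, an organic anion transporter (13.9 CPM in keratinocytes, 303 in LECs and 250 in BECs), *Pear1*, an endothelial receptor (31.2, 350 and 202 CPM), *Zfp521* (13.3, 166 and 116 CPM), *Grb10*, an adaptor of growth factor receptors (22.1, 143 and 185 CPM), and *Mest* (29.7, 253 and 190 CPM). *Mest* shares 23.1% of its exon bases with another gene. *Slco2b1* was equally low in endothelial-low and endothelial-high wells (13.80 and 14.01 CPM).

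Anchorage to the basement membrane was present with its epithelium-restricted parts. Of 13 genes measured, *Col17a1* and 2 laminin 332 chains, *Lamb3* (409 CPM, against at most 1.44 in pooled endothelium) and *Lama3* (125 CPM, with 28.9 in BECs), were higher in every mouse, while *Itgb4* (530, 457 and 370 CPM in keratinocytes, LECs and BECs), *Plec* and *Itgb1* were expressed in endothelium at similar or higher levels. *Dst*, which encodes the plakin that links keratin to hemidesmosomes, was at 719 CPM against 198 in LECs. Of 9 desmosomal genes measured, *Perp*, *Dsp* and *Dsc3* were higher in every mouse. *Pkp3* (636 CPM), *Pkp1* (379 CPM) and *Dsg1a* (219 CPM), a plakophilin pair and a desmoglein, missed this measure since they were at 0 in the well of mutant 2. *Jup*, encoding plakoglobin, which adherens junctions of endothelium also use, was at 1501 CPM in keratinocytes and 1453 CPM in LECs. Among junctional genes, *Cdh1*, the epithelial cadherin (228, 1.37 and 1.43 CPM), and *Cldn1* (306, 2.63 and 2.65 CPM), a claudin of the epidermal barrier, were higher. The desmosome list had a median log2 ratio of 5.82 over its measured genes, the anchorage list of 0.57 and all genes of -0.10.

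Transcription factors of the epidermis were detected. *Trp63* was at 325 CPM in keratinocytes, 1.60 in LECs and 3.93 in BECs, and *Tfap2b*, *Tfap2c* and *Grhl2*, regulators of surface ectoderm, were at 165, 115 and 53.9 CPM against at most 1.15 in pooled endothelium. These 4 of 13 measured factors were higher in every mouse. *Gata3* (450 CPM) and *Klf5* (336 CPM) had higher pooled levels but were at 7.25 and 0 CPM in mutant 2. *Klf4*, which endothelium shares, was at 190, 115 and 86.0 CPM.

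**Figure D4:**
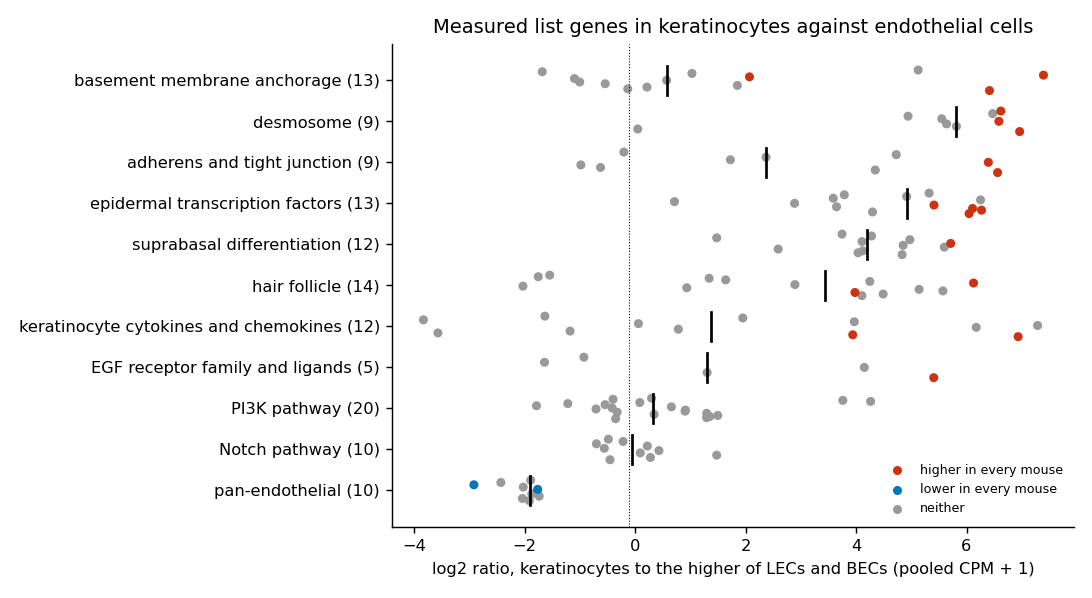
log2 ratio of pooled keratinocyte CPM + 1 to the higher of LECs and BECs (x axis) for the measured genes of 11 lists (y axis, number measured in brackets), coloured by whether every mouse's keratinocyte sum lay above or below every endothelial sum. Black bars are list medians (5.82 for desmosome genes, -1.90 for pan-endothelial genes), and the dotted line is the median of all genes (-0.10).

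Genes of suprabasal layers and of appendages of the epidermis were high in some single wells. In the pooled keratinocytes the late differentiation genes were scarce, as *Lor* (loricrin) was at 1.27 CPM and *Flg* (filaggrin) had no read, while the early suprabasal *Krt10* was at 382 and *Krt1* at 163 CPM. *Lgals7*, a galectin of stratified epithelium, was the suprabasal gene higher in every mouse, at 628 CPM and with a read in 98.7% of wells thinned to 50000 reads. *Krt1* and *Krt10* together reached 1000 CPM in 12 wells, from all mice but mutant 2, 9 of them endothelial-low. Some also held transcripts of other cell types, such as well B8 of control 1 (immune list 3815 CPM) and well I6 of mutant 1 (LEC list 2520 CPM). The 12 wells had a median of 5299 CPM of *Krt5* and 4313 CPM of *Krt14*, compared with 4359 and 3717 CPM in the other wells, so basal keratins were not lower in them. The rule asks for these keratins, so wells that had lost them could not be among the 12, and 3 further wells with *Krt1* and *Krt10* but under 1000 CPM of *Krt5* and *Krt14* are given in the closing section.

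A few wells carried follicle genes. *Krt79*, which marks the upper follicle and its junction with the sebaceous duct, reached 100 CPM in 7 wells, 3 in each control and 1 in mutant 2. Wells C16 of control 1 and B17 of control 2 had 4531 and 5597 CPM of *Krt79* together with 2076 and 3402 CPM of *Krt17*, a follicular keratin, and little *Krt5* (124 and 12.9 CPM) despite 4192 and 3512 CPM of *Krt14*. Well F23 of control 1 had 2360 CPM of *Krt79* with 5058 CPM of *Scd1*, the stearoyl-CoA desaturase of sebocytes, and neither *Krt17* nor *Krt15*. *Scd1* was also above 1000 CPM in the *Krt79* wells E10 of control 2 (1856 CPM) and P11 of mutant 2 (1724 CPM), so the only keratinocyte of mutant 2 carried sebaceous transcripts. Well E10 also held 4758 CPM of the fibroblast list and 3013 CPM of the mural list. *Sox9*, a factor of follicle progenitors, reached 100 CPM in 16 wells, 4 and 6 in the controls and 2, 0, 2, 1 and 1 in mutants 1–5. *Lgr5*, a marker of cycling follicle stem cells, reached 100 CPM in 4 wells from 4 mice, with 1077 CPM in control 1 and 903, 3159 and 3050 CPM in mutants 1, 3 and 4, and none of them had *Krt79*. All 4 also held transcripts of other cell types. The 3 mutant wells were endothelial-high, and the control well, G21, had a melanocyte list at 2659 CPM and a Schwann cell list at 2091 CPM. *Sostdc1*, a secreted Wnt and BMP modulator, was higher in every mouse, at 270 CPM. In pooled sums *Lgr6* was at 77.3 CPM against at most 1.22 CPM in endothelium.

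Genes through which keratinocytes signal to the dermis were present at moderate levels. *Il33*, the nuclear alarmin of barrier cells, was at 354 CPM against 0.80 in LECs and 1.28 in BECs, and *Cxcl14*, a constitutive skin chemokine, at 279 CPM against at most 1.29 CPM. *Cxcl14* and *Ccl27a* (62.4 CPM), which attracts skin-homing T cells, were the 2 of 12 measured cytokine genes higher in every mouse. *Il34*, the ligand that maintains Langerhans cells, was at 135 CPM and *Il1rn*, the interleukin 1 antagonist, at 104 CPM. Among vascular growth factors, *Sema3c*, a guidance ligand for endothelium, was the one of 13 measured that was higher in every mouse (126 CPM against 0.39 and 2.54 CPM). *Vegfa* was barely detected in any class (1.20, 2.82 and 2.45 CPM), and *Vegfd* was at 22.6 CPM. *Egfr* was at 103 CPM, whereas most of its ligands were not measured above 10 CPM in any class. The 12 wound and alarm genes summed to 920 CPM against 20.9 in LECs and 13.6 in BECs, nearly all of it from *Serpinb2* and *Il33*. *Krt16* was at 12.4, *Krt6a* at 1.07 and *S100a8* at 0.24 CPM, and *Tslp*, an epithelial cytokine, was at 14.3 CPM against 13.6 in LECs.

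The PI3K list held no gene that was higher or lower in every mouse, with 20 of 20 measured. Of all 11975 measured genes 1.29% were higher and 1.59% lower, so none in so short a list is near that share. *Pik3ca* itself was at 23.8 CPM in keratinocytes, 30.6 in LECs and 27.3 in BECs. The insulin receptor substrates stood out by pooled level, with *Irs2* at 24.01 CPM against 0.85 and 0.21 CPM, and *Irs1* at 39.6 CPM against 1.11 and 0.76 CPM, although *Irs1* shares 30.9% of its exon bases with another gene. *Irs2* was not found in every mouse. It was at 0 CPM in both kinds of well of mutant 3 and in the endothelial-high wells of control 1 and mutant 5. Of 10 Notch genes none differed in every mouse, which is also near the share of all genes, and *Notch1* was at 448, 615 and 501 CPM. Immediate early genes were high on average but uneven, as *Fos* was at 0 in 15 wells and above 1000 CPM in 25. The list differed by mouse. It summed to 7242 and 10609 CPM in controls 1 and 2 and 8572 CPM in mutant 5, all on higher-numbered plates. In mutants 1–4, on lower-numbered plates, it summed to 1229, 774, 1920 and 1796 CPM.

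High levels of transcripts of further cell types were found in few of the 76 wells. The fibroblast list summed to at least 1000 CPM in 4 wells (1, 2 and 1 in controls 1 and 2 and mutant 3), the mural list in 2 and the immune list in 2. *Ptprc*, encoding the CD45 antigen of the exclusion gate, was detected in 2 wells, at 87.6 CPM at most. A melanocyte list exceeded 100 CPM in 1 well, the *Lgr5* well G21 of control 1. A Merkel cell list of 5 genes did so in 3 wells, through *Piezo2*, an ion channel that LECs also express, at 1127 CPM in well A6 of mutant 3, *Krt18* at 263 CPM in well N23 of mutant 3 and *Krt8* at 164 CPM in well P11 of control 2. The defining *Krt20* and *Atoh1* had no read.

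Keratin reads were in turn widespread in endothelial wells. After thinning to 50000 reads, a *Krt14* read was present in 27.5% of LECs and 37.5% of BECs, against 100% of keratinocytes, at pooled levels of 20.1 and 31.5 CPM. By mouse the share was highest in control 1 (58.6% of LECs and 65.4% of BECs) and lowest in mutant 2 (4.8% and 4.3%). In LECs of the same 6 mice, *Krt15* fell in mutants (33.0 and 40.1 CPM in controls, 7.02, 9.65, 5.53 and 8.44 CPM in mutants 1, 3, 4 and 5, log2 fold change -2.20 ± 0.31 SE, edgeR adjusted p = 0.024). A difference between keratinocytes and LECs in the effect of genotype therefore contains this change in LEC wells as well.

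The share of kept wells that were keratinocytes was not distinguishable between genotypes. It was 3.31% and 3.32% in controls 1 and 2 and 1.34, 0.267, 3.09, 3.50 and 1.59% in mutants 1–5. The controls were nearly alike, and mutant 4 exceeded both while the other mutants were below. The mean was 1.96% ± 1.33 (SD, n = 5) in mutants and 3.31% ± 0.013 (SD, n = 2) in controls, a difference of -1.36 percentage points (two-sided exact permutation test over the 21 splits of 7 mice, p = 0.286). The two-sided p is the smaller tail doubled, and the smallest that this form of the test allows is 0.0952. The share depends on how many keratinocytes passed the sort gate and is not their share in the skin. In endothelial-low wells alone the difference was -2.09 points, with 2.48 and 2.77% in controls and 0.267, 0, 0.982, 0.270 and 1.16% in mutants.

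Between mutant and control keratinocytes 1 gene passed the test. Reads were summed over the keratinocytes of each of 6 mice, without mutant 2, and values here are CPM after TMM scaling. Of 13750 genes tested, *Krt79* alone had an adjusted p under 0.05 (0.00727% called, edgeR quasi-likelihood test), and 667 (4.85%) had an unadjusted p under 0.05, 330 higher and 337 lower in mutants. *Krt79* was at 530 and 550 CPM in controls and at 0 in mutants 1, 3, 4 and 5 (edgeR adjusted p = 0.0145). With no read in these 4 mice, a floor of 3 reads over their sum would put the ratio at 3265. This is not a lower bound, since reads are not independent molecules and few wells carried the gene. The *Krt79* reads of the controls came mainly from the 6 control wells described above, of 24 control wells. With the mutant 2 well counted, the ratio of pooled CPM was 100. *Krt79* stayed lower in 23 of 23 alternatives but was called in 13 of them. It was not called without control 1 (edgeR adjusted p = 0.158), without control 2 (0.340), with mutant 2 included (1.00), in endothelial-low wells (0.349) or with plate series as a term (0.380). The fitted log2 fold change was -14.33, and in these fits it was -14.24, -14.26, -4.11, -13.86 and -14.33 in the same order, a value that depends on the prior count where the mutants are at 0. Without well O11 it was called (edgeR adjusted p = 0.00935). DESeq2 called 287 genes, a count given with its spread in the closing section.

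None of the 5 markers passed the test between genotypes, and 2 of them belong to the rule. *Krt5* was at 3013 and 2786 CPM in controls and 3714, 4967, 5116 and 5553 CPM in mutants 1, 3, 4 and 5, groups that did not overlap, with a log2 fold change of 0.74 ± 0.21 SE (edgeR adjusted p = 0.663). *Krt14* gave 0.50 ± 0.19, *Krt15* 0.62 ± 0.25, *Col17a1* 0.73 ± 0.42 and *Perp* 0.30 ± 0.26 on the same scale. Mutant 1 was below both controls for *Col17a1* (1010 CPM) and *Perp* (1714 CPM), and mutant 2, which took no part in the fit, was below both controls for all 5. Of the genes with the lowest p that were not called, *Apold1*, an early-response gene of endothelium, was at 28.4 and 24.8 CPM in controls and 277, 247, 172 and 224 CPM in mutants (log2 fold change 3.11 ± 0.48 SE, edgeR adjusted p = 0.356). *Col18a1* (2.93), *Hip1* (3.45), *Jcad* (3.44), an endothelial junction protein, and *Pold1* (6.26), a DNA polymerase subunit, followed with adjusted p = 0.591 each in edgeR. In endothelial-low wells *Hip1* had a log2 fold change of -2.20 and *Apold1* of 1.25.

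On the lower side, *Chad* (chondroadherin, a cartilage protein) was at 229 and 379 CPM in controls and 0 in the 4 mutants (edgeR adjusted p = 0.067), and *Angptl7* at 136 and 172 CPM against 0 (0.285). *Chad* came from 3 control wells, E15, E10 and O11, whose fibroblast lists summed to 7245, 4758 and 12386 CPM. *Cnmd* (chondromodulin) and *Mfap4*, a microfibril protein, had log2 fold changes of -12.49 and -5.97. Without well O11, control 2 fell from 380 to 69.8 CPM of *Chad* (before TMM scaling; edgeR adjusted p = 0.336) and from 272 to 0.21 CPM of *Cnmd*, which then did not pass the expression filter. *Angptl7* stayed at 172 CPM in control 2 (edgeR adjusted p = 0.336), and *Mfap4* had a log2 fold change of -6.03. *Scd1* was at 683 and 289 CPM in controls and 76.9, 71.8, 89.2 and 43.2 CPM in mutants, without overlap among the mice fitted (log2 fold change -2.79 ± 0.46 SE, edgeR adjusted p = 0.529). The only well of mutant 2, which took no part in the fit, had 1724 CPM of *Scd1* (before TMM scaling), above both controls. Removal of the *Col2a1*-positive well O11 left 1 gene called.

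**Figure D5:**
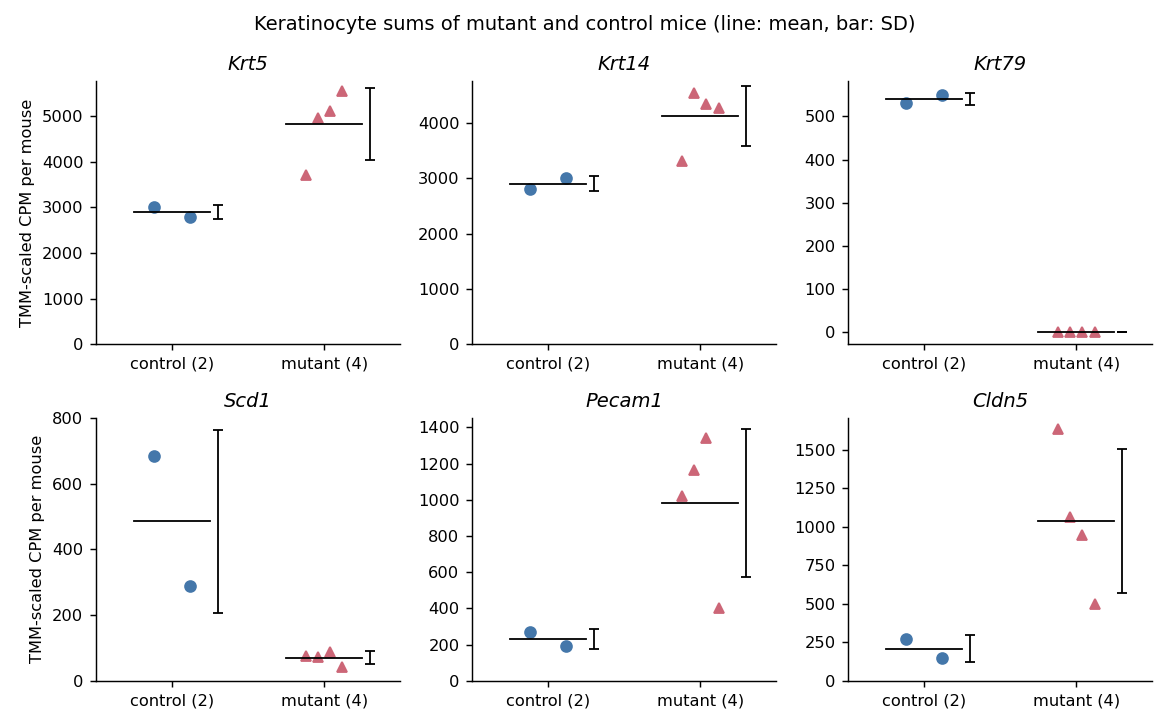
TMM-scaled CPM of 6 genes in keratinocyte sums (y axis) of 2 control and 4 mutant mice (x axis), 1 point per mouse, with the mean as a line and the SD as a bar. *Krt79* is at 530 and 550 CPM in controls and 0 in these mutants, and *Pecam1* and *Cldn5* are higher in all 4 mutants, with no call for either.

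Members of the lists are given by their counts. Among 10 pan-endothelial genes 9 had a positive log2 fold change and 6 an unadjusted p under 0.05, with none called, against 7284 positive and 667 (4.85%) under that limit of all 13750 genes. *Pecam1* was at 269 and 193 CPM in controls and 1022, 1167, 1343 and 402 CPM in mutants (log2 fold change 2.09 ± 0.49 SE, edgeR adjusted p = 0.643), and its lowest mutant value was that of mutant 5. In endothelial-low wells its log2 fold change was -0.23. Of 15 hair follicle genes *Krt79* was called, and *Sox9* was at 236 and 332 CPM in controls and 84.2, 29.9, 39.2 and 44.0 CPM in mutants (log2 fold change -2.53 ± 0.52 SE, edgeR adjusted p = 0.591). The sebaceous list summed, before TMM scaling, to 1414 and 894 CPM in controls and 430, 266, 288 and 272 CPM in mutants 1, 3, 4 and 5. In the single well of mutant 2, which took no part in the fit, it summed to 3663 CPM. Of 7 sebaceous genes, 4 had an unadjusted p under 0.05, all lower in the mutants fitted. The fibroblast list had 5 of 6 lower at that limit, and 2 of 5 without well O11, when its sum in control 2 fell from 2004 to 591 CPM. Of the suprabasal list 0 of 12 were lower at that limit. None of 20 PI3K genes had an unadjusted p under 0.05, and *Pik3ca* was at 84.1 and 9.71 CPM in controls and 26.3, 2.89, 5.79 and 5.16 CPM in mutants, so both ranges overlapped (log2 fold change -2.23 ± 1.39 SE, edgeR adjusted p = 1.00). The interval around each of these is wide, and a gene that was not called is not shown to be equal. Plate series and the share of endothelial-high wells cannot be told apart in these 6 mice, and only mutant 5 separates plate series from genotype. With plate series as a term no gene was called, and 908 had an unadjusted p under 0.05 in edgeR.

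The same genotypes in endothelial wells gave more calls. In the same 6 mice, 353 of 19335 genes were called in LECs (1.83%) and 179 of 19225 in BECs (0.931%), from many more wells per mouse. The difference of effects was tested directly with the mouse as a block. No gene of 19674 passed for keratinocytes minus LECs (980, or 4.98%, at an unadjusted p under 0.05 in edgeR, and 433 called by DESeq2), and none of 19096 for keratinocytes minus BECs (953, or 4.99%, and 379 by DESeq2). The lowest adjusted p against LECs was 0.0683 in edgeR, shared by *Krt15* (log2 difference of effects 2.86), *Col18a1* (3.05), *Jcad* (3.61), *Clca3a2* (3.64) and *Wscd1* (4.19). For *Krt15* the effect was 0.62 in keratinocytes and -2.20 in LECs. Against BECs the lowest was *Jcad* (3.93, edgeR adjusted p = 0.274), then *Ripk4*, a kinase of epidermal differentiation (6.39, 0.466). In keratinocyte sums *Jcad* was at 294–341 CPM (TMM-scaled) in mutants 1, 3 and 4. It was at 96.7 CPM in mutant 5, the mutant with the lowest share of endothelial-high wells (27.3%) and the only one on the higher-numbered plates. Whether either bears on *Jcad* was not tested. Of 10 pan-endothelial genes, 7 against LECs and 6 against BECs had an unadjusted p under 0.05 in edgeR, with positive differences.

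Cell cycle genes were detected in keratinocyte wells of both genotypes. A well counted as cycling when, after thinning to 50000 reads, at least 3 of 7 cell cycle genes had a read. This held for 12 of 76 keratinocytes (15.8%), 244 of 1631 LECs (14.96%) and 8.65% of BECs. By mouse it was 0 of 12 and 2 of 12 wells in controls 1 and 2 and 3 of 5, 1 of 1, 4 of 22, 0 of 13 and 2 of 11 in mutants 1–5. Mutants with at least 5 wells had a mean of 24.1% ± 25.4 (SD, n = 4) and controls of 8.33% ± 11.8 (SD, n = 2), a difference of 15.8 points (two-sided exact permutation test, p = 0.4). Without mutant 1, whose 5 wells gave the highest share, the difference was 3.79 points. Without thinning, 28 wells passed and the difference was 29.6 points. Endothelial-high wells were among the cycling ones, such as C12 of mutant 1 and the well of mutant 2. In endothelial-low wells alone the share was 0 and 20% in controls 1 and 2 and 14.3 and 12.5% in mutants 3 and 5. The difference was then 3.39 points. From which cell type the cell cycle reads of endothelial-high wells came was not tested. *Mki67*, which marks dividing cells, was at 1.45 and 44.0 CPM in control sums and 209, 42.2, 4.44 and 226 CPM in mutants 1, 3, 4 and 5, and the ranges overlapped. Of 15 cell cycle genes none was called and 1 had an unadjusted p under 0.05 in edgeR. Of all 13750 genes tested 1 was called and 4.85% were under that limit, so these counts set the list apart in neither way.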

How the data were processed

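The deposited tables hold raw read counts per gene and well for 9 plates of 384 wells (5 mutant and 2 control mice, 2 plates for mutants 3 and 5). Per the methods, the authors aligned Smart-Seq2 reads with TopHat2 2.1.1 to GRCm38 and the chicken *PIK3CA* sequence, removed duplicates with SAMtools 0.1.18 and counted with featureCounts. The annotation version is not given in the sources used here. Deposited gene lengths, in bases, gave RPKM. GENCODE vM21 supplied symbols and gene positions for 98.9% of 46517 genes, and RefSeq the promoters.

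Wells with at least 50000 reads outside the ERCC spike-ins, at least 200 genes and at most 10% mitochondrial reads were kept. LECs and BECs were the remaining wells with at least 200 CPM of their 3 rule genes and more than of the other 3. No doublet caller was run. Genes entered the description at 10 CPM in 1 pooled class, and log2 ratios used CPM + 1. For genotype, reads were summed per mouse with at least 5 wells and fitted with edgeR 4.0.16 in R 4.3.3 (filterByExpr, TMM, robust quasi-likelihood F test, Benjamini-Hochberg adjustment over all genes tested, call under 0.05). Differences of effects had the mouse as a block. DESeq2 1.42.0 was an alternative. The fits were tested on simulated data. Shares were compared over mice by exact permutation with the smaller tail doubled, and wells were thinned to 50000 reads for cycling. Tables and figures used Python 3.11.15 with scipy 1.17.1, pandas 2.3.3, numpy 2.4.6 and matplotlib 3.10.9.

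The members, lists and tests were chosen with earlier results of these data known. The rule for named genes took the 5 markers, the 6 endothelial genes of the rule by their sums, 2 to 4 examples per list by level or lowest p, the 15 genes with the largest ratio (at least 100 CPM and a read in 75% of wells) and the 5 most lower (1 gene that the rule named is not reported here), and per fit the called genes or the 5 lowest p in each direction. The wells and genes named for follicle, sebaceous, cartilage and endothelial transcripts were chosen after their values were seen. Overlap of exons was computed from GENCODE without strand, since strand was not given for the counting. Mice are separate animals and p-values are over mice.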

Additional observations from a re-analysis of the deposited data

Results flagged for a closer look

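In the keratinocyte sums of mutants 1, 3, 4 and 5, *Pold1* was at 119 CPM (TMM-scaled) in mutant 3 and at 42.9–55.7 CPM in the other 3, a gap larger than Dixon's limit for 4 values. Of 16 groups of mice examined in this way it was the only one past the limit, and chance passes about 1 in 20 such groups. Outside the keratinocyte class, 3 kept wells of no class, all from control 2, had at least 1000 CPM of *Krt1* and *Krt10*, the suprabasal keratins. Well N13 had 4969 CPM of *Krt1* and 4800 CPM of *Krt10* with 7.34 CPM of *Krt14*. Well N15 had 2143 and 4478 CPM with 135 CPM of *Krt14*, and *Krt2*, a keratin of late suprabasal cells, at 5949 CPM. Well L10 had *Krt10* at 1033 CPM beside 5771 CPM of *Col1a2*, a fibroblast collagen. All 3 had under 2000 CPM of pan-endothelial transcripts and were left out by the limit on *Krt5* and *Krt14*.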

How the results depend on the processing

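The count of genes called between genotypes in keratinocytes rested on few wells and moved with most choices. Against 1 gene, DESeq2 called 287, a fit with no expression filter 16, wells with under 100 CPM of the endothelial rule genes 31 (20 wells of 5 mice, for which the minimum was also lowered to 1 well per mouse), an equal number of wells per mouse 9, first plates only 2 and wells thinned to 50000 reads 2. No gene was called with sex as a covariate, with a keratin limit of 5000 CPM, on the plate series of the controls only or with at least 1 well per mouse. The following alternatives were chosen after the data were seen. The plate series as a term gave 0 calls, endothelial-low wells 0 (1119 genes at an unadjusted p under 0.05) and endothelial-low wells with DESeq2 556. For the pairing by title number, a replicate block could not be fitted in the 6 mice, which share only number 1. With at least 1 well per mouse the block gave 6 calls on 1 residual degree of freedom, and the numbers only name the mice. Leaving out each mouse gave 0–2 calls, with 0 without control 1 and 0 without control 2. For keratinocytes minus LECs, where the mouse was the block, 0 calls became 433 with DESeq2, 7 with no filter, 9 with no replicate block, 16 with thinned wells, 14 with endothelial-low wells and 0–3 without each mouse (3 without mutant 1). For keratinocytes minus BECs they became 379 with DESeq2, 4 with thinned wells and 1 with endothelial-low wells, and stayed at 0 without the block and without each mouse. The genes higher in keratinocytes than in every endothelial sum numbered 154, and 411 at the limit of 5000 CPM, 65 in endothelial-high wells and 163–428 without each mouse (428 without mutant 2). The difference in keratinocyte share ran from -1.75 to -0.94 points and that in cycling share from 3.79 to 24.1 points when each mouse was left out. At the limit of 5000 CPM the first was -0.31 points, and in endothelial-low wells the second was 3.39 points. Both kept their sign in all alternatives run, and with purity as a rule the cycling share left 1 mouse per genotype and no test. The causes of these changes were not tested. With 5 to 22 wells per mouse, and for many genes reads in single wells, the data cannot separate 1 unusual cell from a change in most cells.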
